A study of Mus musculus with 2 samples.

Results

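The genes of the mitochondrial ribosomal proteins were examined in cultures of mouse bone marrow cells. They were chosen by name, as every gene with a symbol that begins with Mrpl or Mrps and a digit in the platform annotation of the array. This gave 76 genes of the 18193 that had a probe set with 1 symbol, of which 47 were named for the large subunit (Mrpl) and 29 for the small subunit (Mrps). The cells came from C57BL/6 mice and received either control siRNA or silncMDSC, which targets lncMDSC, a long non-coding RNA that the study calls lnc-C/EBPβ. Both cultures were then kept with GM-CSF and IL-6 for 4 days, a treatment that yields myeloid-derived suppressor cells (MDSCs), immature cells of the neutrophil and monocyte lineages in one dish. RNA of each culture was hybridised to 1 Affymetrix mouse array, so that each siRNA is represented by a single culture, for which the labels name no sorting of cells. There was no replicate and therefore no test: each difference describes these 2 arrays, and the number of arrays limits the precision. The annotation used here names no probe set for lncMDSC, and the level of the targeted RNA was not analysed here.

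Mitochondria keep a ribosome of their own, which translates the few messages of the mitochondrial genome, all of them for core subunits of the respiratory chain and the ATP synthase. Its rRNAs are made inside the organelle, whereas every one of its proteins is encoded in the nucleus, made in the cytosol and imported. The large subunit joins amino acids and holds the exit tunnel of the new chain, and the small subunit reads the message. Some of the proteins descend from those of the bacterial ribosome and others exist only in mitochondria. Loss of this ribosome limits respiration, on which dividing myeloid progenitors rely more than mature neutrophils do.

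The arrays were comparable as a whole. Probe sets had a median intensity of 77.9 in control and 79.0 in silncMDSC, and the median difference of the 11920 genes analysed, those that reached an intensity of 78.4 (the median of all probe sets) on at least 1 array, was -0.002 on the log2 scale with a robust SD of 0.18. Spiked hybridisation and poly-A controls were higher on the silncMDSC array by medians of 0.11 and 0.16 (log2). The labelled cell type was checked with S100a8 and S100a9, the calcium-binding proteins of neutrophils and monocytes, which read between 13399 and 13982 on both arrays and thus at the top of the scale. Itgam (CD11b) read 2144 and 2040 in control and silncMDSC. Of the erythroid markers, Hba-a1 and Klf1 stayed below the floor of 78.4 on both arrays, and Gata1, which eosinophils and mast cells also express, read 98.2 and 120 (0.29).

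Most mitochondrial ribosomal protein genes were slightly lower in the silncMDSC culture. All 76 genes were above the floor on both arrays, with intensities from 121 to 2676 in control and from 96.0 to 2267 in silncMDSC. Of the 76 genes, 67 were below control and 9 above, where 50.7% of all genes analysed were below and 49.3% above. The median difference was -0.20 (log2), a level 1.15-fold lower, against -0.002 over all genes analysed. At least 20% lower than control were 15 of the 76 genes (19.7%), beside 6.95% of all genes analysed, and none was at least 25% higher, the same ratio in the other direction, beside 4.45% of all genes. The differences were small: only 2 genes, Mrpl47 and Mrps2, were at least 1.5-fold lower, beside 1.42% of all genes, none was 1.5-fold higher, beside 0.948%, and none was 2-fold apart. The other 61 genes lay between 20% lower and 25% higher. The lower quartile of all genes analysed was -0.13, and 49 of the 76 mitochondrial ribosomal protein genes (64.5%) were at or below it. Summed over the 76 genes, intensity was 65813 in control and 58344 in silncMDSC, 1.13-fold lower. All genes analysed were not matched to the 76 genes in level. With the floor raised to the 75th percentile, 8.50% of all genes were at least 20% lower and their median was -0.02. When a smooth (loess) trend on level was removed, the large and small subunit medians were -0.16 and -0.18.

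**Figure D1:**
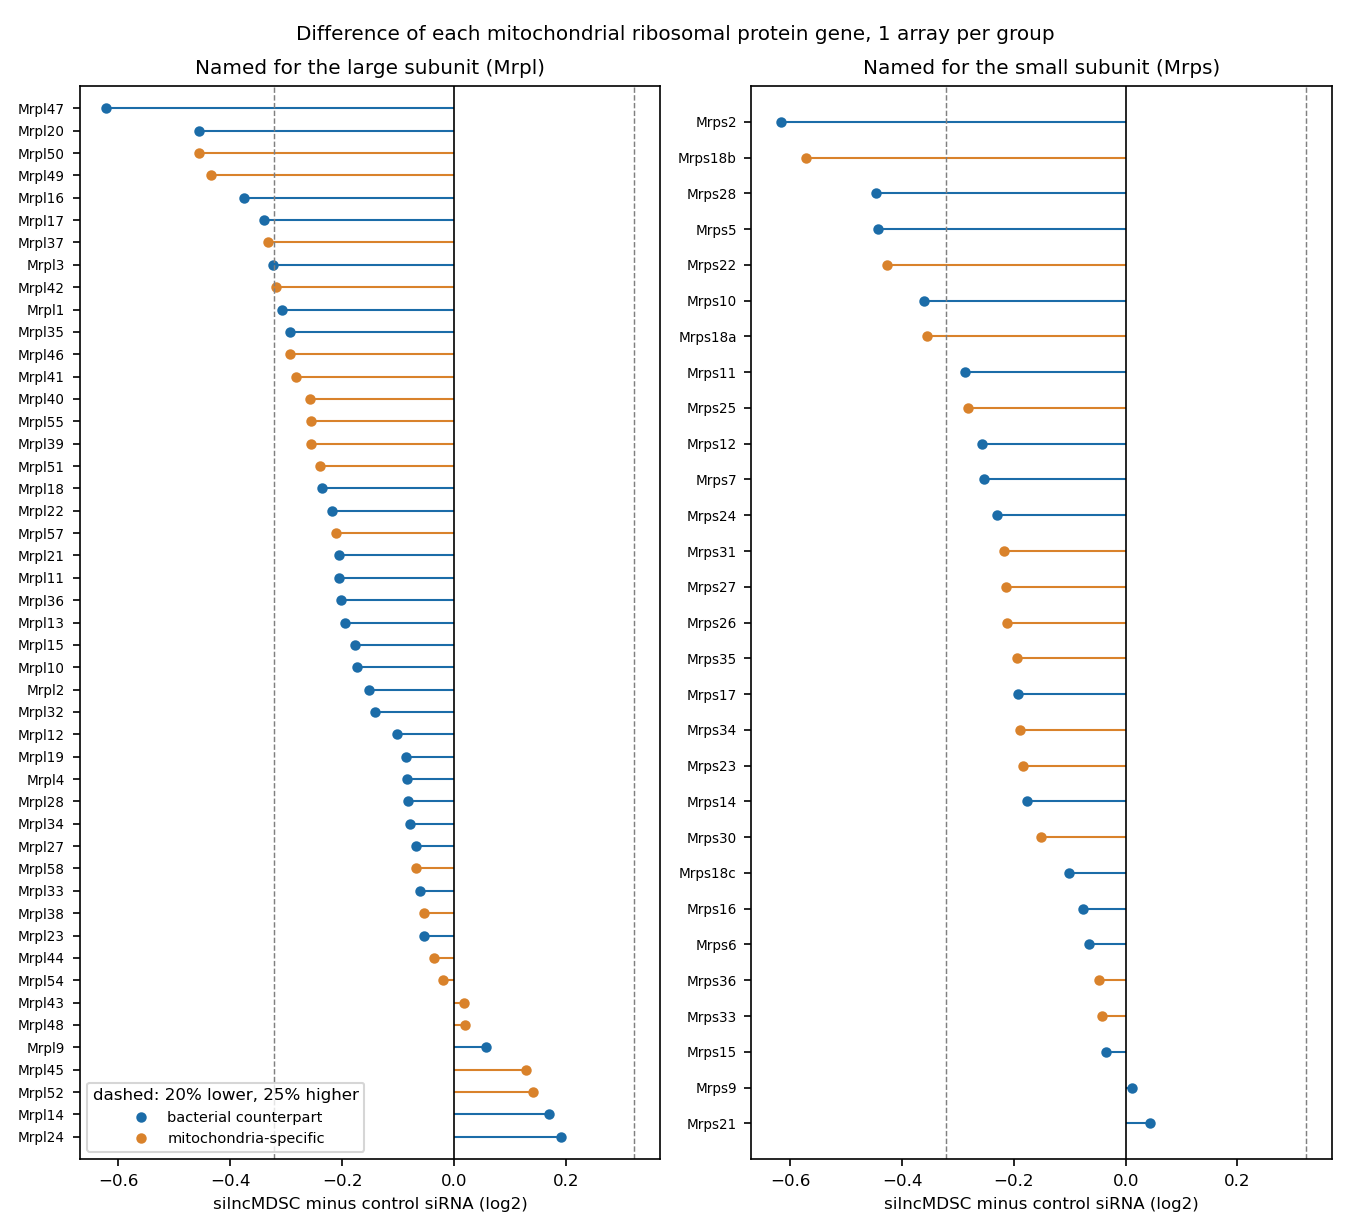
Difference of each mitochondrial ribosomal protein gene between the arrays, as log2(intensity + 1) of silncMDSC minus control siRNA, for 47 genes named for the large subunit on the left and 29 named for the small subunit on the right. Each point is 1 gene read from its brightest probe set on 1 array per group, colour gives the class of the protein, and dashed lines mark 20% lower and 25% higher; 15 points lie beyond the left line and none beyond the right.

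RNA of a mixed culture does not tell fewer cells of a type from less RNA per cell, and several markers of cell types differed between the arrays as well. Markers of macrophages were lower in silncMDSC in 6 of 6 genes, with a summed intensity of 9310 in control and 7050 in silncMDSC. By at least 20%, 4 of them were lower, beside 6.95% of all genes analysed. Adgre1 (F4/80) at 3070 and 3068 and C1qa at 1419 and 1389 (-0.03) were nearly equal. Those of dendritic cells were higher in 6 of 6 genes, with sums of 7694 and 11206, and those of eosinophils in 3 of 3, with sums of 2673 and 3845. Markers of monocytes were higher in 3 of 3 genes, with sums of 5000 and 5503. Ccr2 (845 and 1069, 0.34) and Cx3cr1 (67.3 and 87.3, 0.37) were at least 25% higher, beside 4.45% of all genes analysed. Markers of mast cells and basophils went both ways, with Cpa3 at 0.48, Fcer1a at -0.44 and Mcpt8 at 0.02. Markers of neutrophils had sums of 43009 and 41188, and 6 of 7 were below control. S100a8 and S100a9 were below by only 0.01, and make up much of both sums. They read at the top of the scale, where a difference may not show. Of the 7, 0 were 20% lower, and Cxcr2 was over 25% higher (779 and 1053, 0.44). Markers of cycling cells, such as Mki67 and Pcna, had sums of 16813 and 16001 with a median of -0.08. Of these, 0 of 7 were 20% lower or 25% higher, beside 6.95% and 4.45% of all genes analysed. The part of these shifts in cell type and cycling in the result for the mitochondrial ribosomal protein genes was not tested.

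The large and small subunits had similar medians. For the large subunit, 40 of 47 genes were below control, the median difference was -0.20, and 8 genes (17.0%) were at least 20% lower. For the small subunit, 27 of 29 genes were below control, the median difference was -0.21, and 7 genes (24.1%) were at least 20% lower. Over all genes analysed, 50.7% were below control and 6.95% were at least 20% lower. The large subunit median exceeded the small by 0.02 (log2). Without replicates no interval can be given for this gap. The names do not follow the structure in every case. Mrps18a and Mrps30 sit in the large subunit of the mammalian ribosome, and Mrps36 is now known as a component of the 2-oxoglutarate dehydrogenase complex. Placed by structure, 49 large subunit genes had a median of -0.20, 26 small subunit genes had a median of -0.21, and the gap was again 0.02. Genes of proteins with a bacterial counterpart had a median of -0.19 over 44 genes, 39 of them below control. Genes classed as mitochondria-specific had a median of -0.21 over 32 genes, 28 of them below. This class, as used here, included Mrps18a and Mrps18b, added copies of a bacterial protein, and Mrps36, placed in neither subunit by structure.

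**Figure D2:**
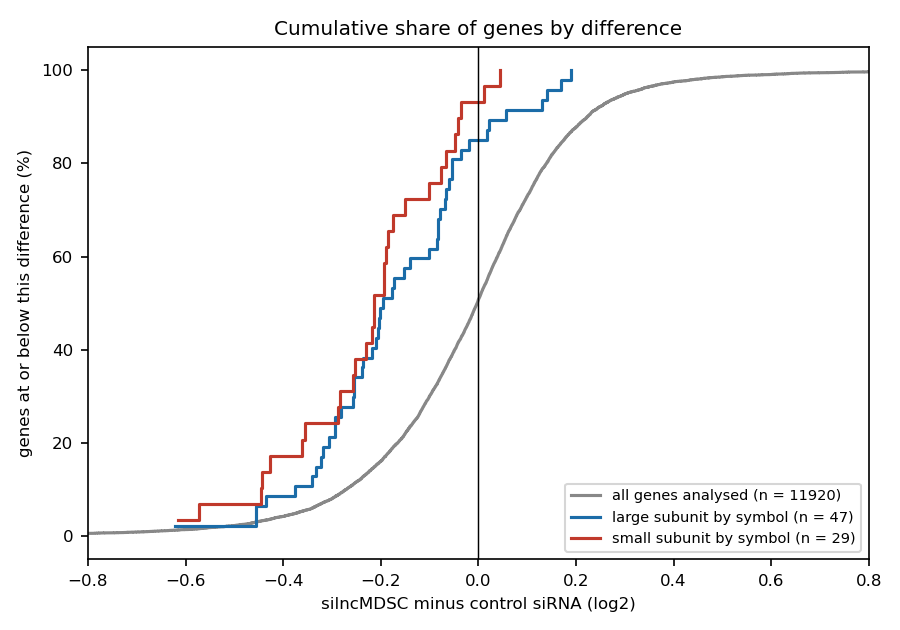
Cumulative share of genes (%) against the log2 difference, silncMDSC minus control siRNA, for all 11920 genes analysed (grey), 47 large subunit genes (blue) and 29 small subunit genes (red), 1 array per group. Both subunit curves lie to the left of the grey curve over most of their range, with medians of -0.20 and -0.21 against -0.002, and they cross each other.

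Promoters were examined as a description of sequence only. RefSeq (GRCm38.p6) gave 73 promoters, from 250 bases before to 50 after the start, for 67 of the 76 genes. The letters CCGGAAG, which the GABP (ETS) factor known for mitochondrial genes can bind, were found on either strand in 25 of 73 (34.2%), in 16.5% of the promoters of all genes analysed, and in 8.86% of all promoters in the table. The NRF1 letters, GCGC and TGCGC with any base between them, were in 16.4% of the members' promoters, against 9.34% for all genes analysed and 4.60% of all promoters. The YY1 letters ATGGCGG were also in 16.4%, against 7.48% and 4.05%. The other motifs were close to the genes analysed: the E-box CACGTG, read by MYC and its partners, was in 9.59% against 9.87%, the NF-Y letters CCAAT in 39.7% against 37.0%, and the CRE TGACGTCA in 2.74% against 2.89%. Matches of different motifs were counted separately and can overlap at their ends.

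The ETS letters were in 5 of 14 promoters of genes at least 20% lower (35.7%) and in 20 of 59 promoters of the other members (33.9%). The YY1 letters were in 5 of 14 and 7 of 59, the NRF1 letters in 1 of 14 and 11 of 59, and the CRE in 2 of 14 and 0 of 59. With 14 promoters in the first set, none of these counts, the ETS count included, can show or deny a difference between the sets. A match is a description of the letters and no evidence that a factor was bound. The ETS match is shown in capitals in the 120 bases before the start of 3 genes, given 5′ to 3′ on the strand of the gene, namely Mrps22 at chr9:98601680-98601799 on the minus strand, Mrps18a at chr17:46110884-46111003 on the plus strand and Mrpl58 at chr11:115403632-115403751 on the plus strand. They were picked after the matches were known, among members below control with only 1 RefSeq promoter. Genes on 1 chromosome were left out beforehand. Of those with the letters this near the start, Mrps22 and Mrps18a were farthest below control (-0.43 and -0.36). Mrpl58 was nearest to 0 (-0.07).
Mrps22: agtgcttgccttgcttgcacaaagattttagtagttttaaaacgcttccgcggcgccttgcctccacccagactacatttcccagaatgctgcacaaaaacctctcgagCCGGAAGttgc
Mrps18a: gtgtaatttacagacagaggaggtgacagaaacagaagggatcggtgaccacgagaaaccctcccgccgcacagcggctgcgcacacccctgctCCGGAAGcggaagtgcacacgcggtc
Mrpl58: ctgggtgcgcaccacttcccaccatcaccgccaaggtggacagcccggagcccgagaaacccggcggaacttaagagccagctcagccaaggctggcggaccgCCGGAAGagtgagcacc
The capitals begin 11 bases before the start in Mrps22, 26 in Mrps18a and 17 in Mrpl58. Mrpl58 held a further match that begins 2 bases before the start and runs past it, beyond the stretch shown. Because these genes were chosen by their differences, the contrast between them was fixed in advance and says nothing about the letters.

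Among the large subunit genes, Mrpl47 was farthest below control. It encodes the counterpart of bacterial L29 at the mouth of the exit tunnel, and read 831 in control and 539 in silncMDSC, 1.54-fold lower (-0.62). Its remaining probe sets were below the floor, at intensities of 40.5 to 44.7 in control, and the mean over all its probe sets, dim ones included, gave -0.24. Mrpl20, the counterpart of an early assembly protein of the bacterial large subunit, read 829 and 604 (-0.46). Mrpl16, which lies near the site where tRNAs are accommodated, read 700 and 539 (-0.38). Mrpl17, another protein of the tunnel exit, read 1152 and 910 (-0.34), and gave -0.10 when all its probe sets were averaged. Mrpl3, which reaches towards the catalytic centre, read 1804 and 1442 (-0.32), and gave -0.18 when averaged in this way. These 5 genes belong to proteins inherited from bacteria.

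The mitochondria-specific genes of the large subunit were represented at this end of the range too. Mrpl50 read 329 in control and 240 in silncMDSC (-0.46), and its other probe set gave -0.39. Mrpl49 read 405 and 299 (-0.43), and its other probe set gave -0.32. Both genes thus rested on more than one reading. Mrpl37, the dimmest of the 76 genes, read 121 and 96.0 (-0.33). Just inside the threshold of 20% lower stood Mrpl3 at -0.32, and just outside it Mrpl42 at 1530 and 1226 (-0.32) and Mrpl1, a protein of the L1 stalk, at 567 and 458 (-0.31). For Mrpl42 a dim probe set, 18.5 and 24.2, turned the mean over all probe sets to 0.03.

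A few large subunit genes were above control. Mrpl24, which binds early in assembly and lines the tunnel exit, was the highest, with 1350 in control and 1541 in silncMDSC, 1.14-fold higher (0.19). Mrpl14, a protein of the face that meets the small subunit, read 403 and 453 (0.17). Mrpl52 read 1481 and 1633 (0.14), and both of its other probe sets above the floor were higher as well, by 0.08. Mrpl45, which anchors the ribosome to the inner membrane, read 620 and 678 (0.13). Mrpl9, Mrpl48 and Mrpl43 were within 0.06 of control, and a dimmer probe set of Mrpl9, 116 and 99.4, was lower (-0.22). None of these 7 genes was 25% higher, beside 4.45% of all genes analysed. In the other direction 8 large subunit genes passed the same ratio, beside 6.95% of all genes.

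**Figure D3:**
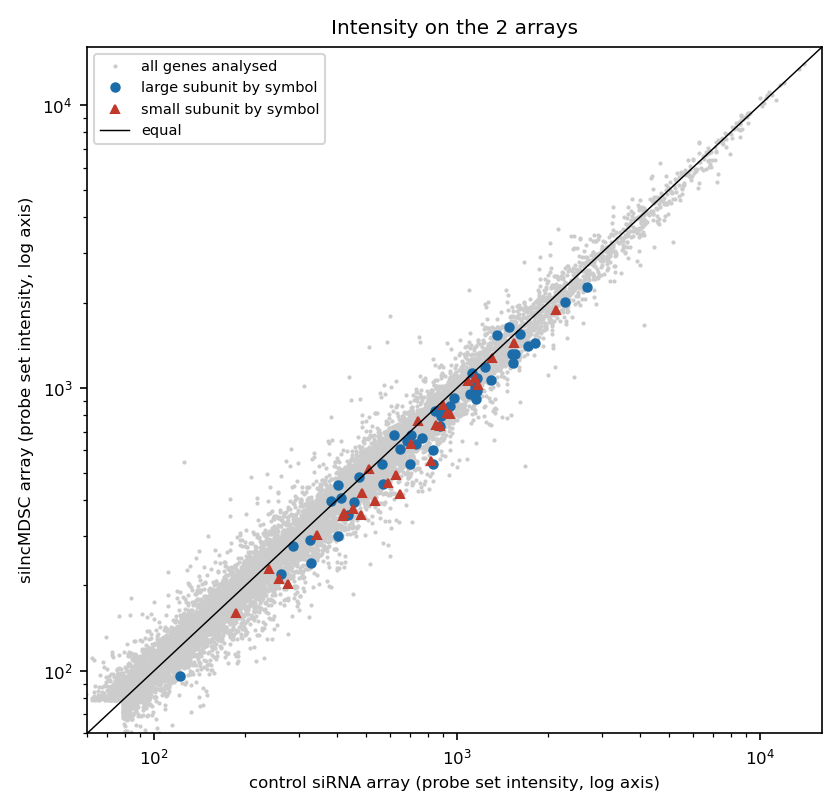
Probe set intensity of each gene on the silncMDSC array against the control siRNA array, both axes logarithmic, for all 11920 genes analysed (grey), large subunit genes (blue circles) and small subunit genes (red triangles); the line marks equal intensity. The 76 mitochondrial ribosomal protein genes run from 121 to 2676 in control, and 67 of them lie below the line.

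Within the large subunit, genes were grouped by the place of their proteins. In the stalk that recruits translation factors, Mrpl10 read 326 in control and 289 in silncMDSC (-0.17). Mrpl11 of the same stalk read 730 and 633 (-0.20), and Mrpl12 read 1163 and 1084 (-0.10). All 3 stalk genes were below control and none by 20%. The 6 exit tunnel genes ranged from -0.62 for Mrpl47 to 0.19 for Mrpl24, with a median of -0.14. Between them lay Mrpl17, Mrpl22 at 1103 and 949 (-0.22), Mrpl23 at 704 and 678 (-0.05) and Mrpl45. Neighbouring proteins of 1 structure therefore stood at both ends of the whole range.

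The central protuberance, the knob that faces the head of the small subunit, had 5 of 6 genes below control and a median of -0.15. Mrpl46 read 434 in control and 354 in silncMDSC (-0.29). Mrpl40 read 874 and 731 (-0.26), and Mrpl18, whose bacterial counterpart holds the small rRNA of the large subunit there, read 1546 and 1313 (-0.24). These 3 genes were below the lower quartile of all genes, -0.13. Mrpl38 at 287 and 276 (-0.05), Mrpl48 at 475 and 482 (0.02) and Mrpl58 at 563 and 537 (-0.07) were close to control. Mrpl58 is a peptidyl-tRNA hydrolase that became part of the ribosome and can release stalled chains.

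The other large subunit genes filled the middle of the range. Of the genes with a bacterial counterpart, Mrpl35 (1715 and 1399, -0.29), Mrpl21 (455 and 395, -0.21), Mrpl36 (765 and 665, -0.20) and Mrpl13 (1147 and 1002, -0.20) were below the lower quartile of all genes. Mrpl2, a protein next to the catalytic centre, read 882 and 794 (-0.15), and Mrpl32 read 949 and 861 (-0.14), both also below that quartile. With all probe sets averaged, dim ones included, Mrpl35 gave -0.14 and Mrpl21 gave -0.02. Mrpl4, Mrpl19, Mrpl27, Mrpl28, Mrpl33 and Mrpl34 were within 0.09 of control. Of the mitochondria-specific genes, Mrpl41 (1293 and 1063, -0.28), Mrpl55 (262 and 219, -0.26), Mrpl39 (1162 and 974, -0.26) and Mrpl57 (1516 and 1311, -0.21) were lower. Mrpl51, the brightest of the 76, read 2676 and 2267 (-0.24), but its second probe set, 197 and 198, gave 0.01. Mrpl44, which has the fold of an RNase III enzyme, and Mrpl54 were within 0.04 of control.

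Among the small subunit genes, Mrps2 was farthest below control, with 648 in control and 422 in silncMDSC, 1.53-fold lower (-0.62). Its second probe set was dim and hardly differed, with 90.1 and 86.3 (-0.06), and the average of both was -0.34. Mrps28, the counterpart of bacterial S1 near the entry of the message, read 483 and 354 (-0.45). Mrps5, also near the message entry, read 276 and 203 (-0.44), and its 3 other probe sets above the floor were lower, from -0.17 to -0.31, and the average of all its probe sets was -0.25. Mrps22, a mitochondria-specific protein, read 535 and 398 (-0.43). Mrps10, a protein of the head, read 591 and 460 (-0.36), and with a dim probe set of 44.2 and 50.4 averaged in, its difference was -0.09. The genes of the small subunit were thus led by proteins of the message entry, the head and the mitochondrial additions alike.

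The Mrps18 genes arose from 1 bacterial ribosomal protein and now serve different places. Mrps18b read 820 in control and 551 in silncMDSC (-0.57, 1.49-fold lower). Mrps18a, the product of which sits in the large subunit, read 629 and 491 (-0.36). Mrps18c, which keeps the ancestral place in the small subunit, read 1539 and 1436 (-0.10). Thus 2 of the 3 were at least 20% lower, beside 6.95% of all genes analysed, and the copy in the ancestral place was nearest to control. Each was read by a probe set of its own, and levels were not compared between them.

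The remaining small subunit genes were mostly lower by less than 20%. Mrps12, a protein of the decoding centre, read 876 in control and 733 in silncMDSC (-0.26). Mrps24, the counterpart of bacterial S3, read 948 and 809 (-0.23), and Mrps7, an early binder in the head, 420 and 353 (-0.25). Mrps11 (258 and 211, -0.29) and Mrps25 (452 and 371, -0.28) were the nearest to the threshold. Mrps27, an RNA-binding protein with pentatricopeptide repeats, read 186 and 160 (-0.21). Mrps17, Mrps23, Mrps26, Mrps31, Mrps34 and Mrps35 formed a narrow group between -0.22 and -0.18. All 10 genes of the small subunit by structure that were classed as mitochondria-specific, Mrps18b among them, were below control. Nearest to control were Mrps21 at 742 and 765 (0.04), Mrps9 at 512 and 516 (0.01), Mrps15 at 1301 and 1269 (-0.04), Mrps33 at 1084 and 1052 (-0.04) and Mrps36 at 898 and 869 (-0.05). Mrps16 and Mrps6 were within 0.08, and Mrps30 was at 704 and 634 (-0.15). With dim probe sets averaged in, Mrps31 gave -0.07 and Mrps21 gave 0.21.

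Several genes were read by more than 1 probe set, which gives further readings of the same arrays but no replicates. Of 156 probe sets with 1 symbol, 130 were above the floor, and 112 of them were below control and 18 above, where 51.7% of all probe sets above the floor were below and 48.2% above. At least 20% lower were 19 probe sets, beside 7.53% of all, and none was at least 25% higher, beside 4.24% of all. Among the 33 genes with several probe sets above the floor, 28 had all of them on one side of 0. The probe sets disagreed by over 0.15 on either side of 0 for 2 genes. Mrpl15 ranged over 7 probe sets from -0.75 (142 and 84.0) to 0.16 (169 and 189), with -0.18 for the brightest (2266 and 2004). Mrps14 had -0.18 (2120 and 1876) and -0.21 (391 and 338) beside 0.21 from its dimmest (98.0 and 114). Of the 15 genes at least 20% lower, 6 had further probe sets above the floor and every one of these was lower, and 9 rested on a single probe set above the floor.

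**Figure D4:**
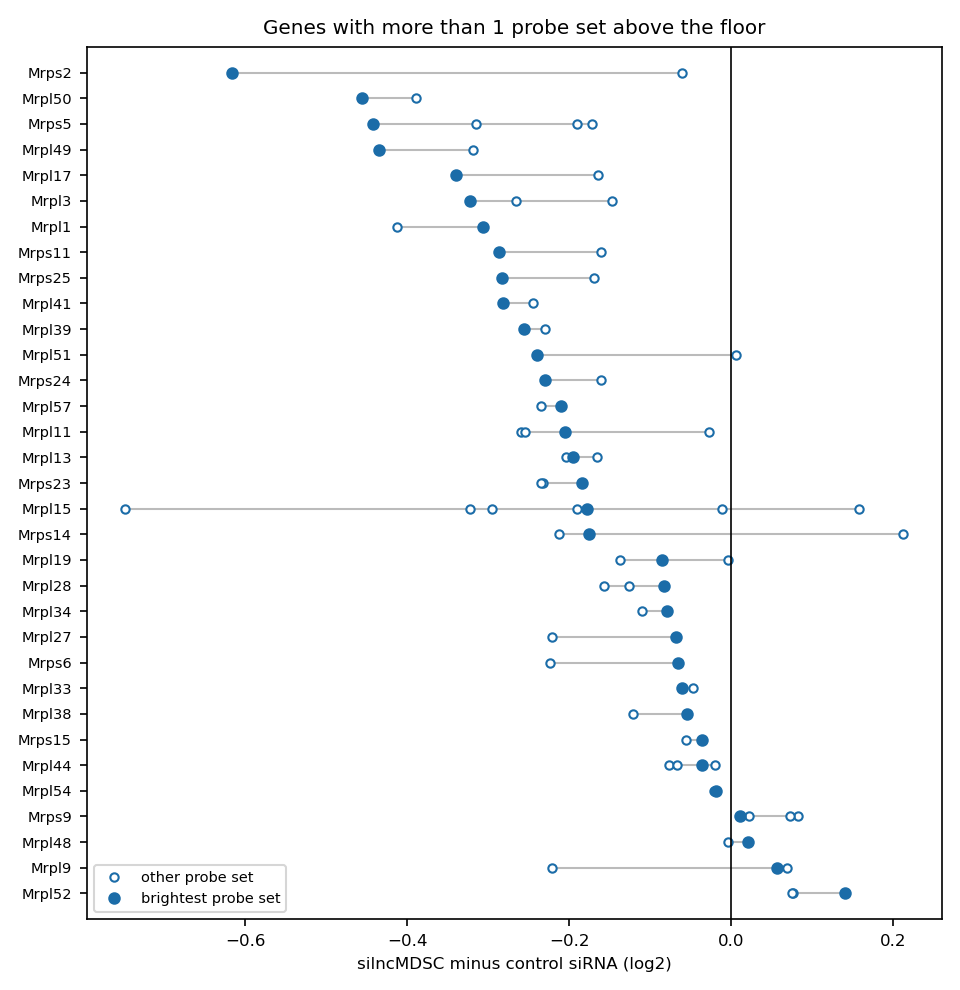
Log2 difference, silncMDSC minus control siRNA, of every probe set above the floor for the 33 genes with more than 1 such probe set, 1 array per group. Filled points are the brightest probe set of a gene, open points its other probe sets and the line joins them; most lines stay left of 0, whereas Mrpl15 reaches from -0.75 to 0.16 and Mrps14 from -0.21 to 0.21.

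Probe sets with several symbols were not counted. One shared by Mrpl30 and Gm6238 read 2503 and 2379 (-0.07). One shared by Mrpl53 and Ccdc142 read 593 and 442 (-0.42), and one shared by Mrps34 and Nme3 read 286 and 307 (0.10). The last was on the other side of 0 from the Mrps34 probe set with 1 symbol, 926 and 812 (-0.19).

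Mitochondrial ribosomal proteins with other names were read under those names for 4 of 7 listed genes, with a median of -0.19, or -0.17 over 3 genes without Ptcd3. Ict1 and Mrp63, also on the list, are older symbols of Mrpl58 and Mrpl57, which were counted among the members above. Aurkaip1 had no probe set with 1 symbol. Chchd1 read 1338 in control and 1152 in silncMDSC (-0.22), and Gadd45gip1, a large subunit protein, 322 and 287 (-0.17). Dap3, a GTP-binding protein of the small subunit, read 755 and 762 (0.01). For Ptcd3 the brighter probe set read 376 and 273 (-0.46) but the dimmer 69.0 and 114 (0.71), so no direction is given for it.

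Of the 9 mitochondrial translation factors above the floor, 7 were below control, with a median of -0.16. Only Gfm1, the elongation factor that moves the ribosome along the message, was at least 20% lower, with 381 and 286 (-0.41), which is 11.1% of the list beside 6.95% of all genes analysed. Tufm, which delivers the tRNAs, read 340 and 299 (-0.19), and the release factor Mtrf1l 188 and 166 (-0.18). Genes of ribosome assembly and rRNA modification were more evenly split, with 15 of 24 below control and a median of -0.04. Of these, 3 were at least 20% lower (12.5%, beside 6.95% of all genes) and 1 at least 25% higher (beside 4.45% of all genes). Fastkd2, an RNA-binding protein of the mitochondrial RNA granule, read 237 and 160 (-0.56), and its other probe sets above the floor were lower too (-0.65 and -0.72). The assembly GTPase Noa1 read 196 and 149 (-0.40). Mettl15, a methyltransferase of the small rRNA, was higher, with 93.3 and 118 (0.34), close to the floor.

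Genes of mitochondrial transcription and RNA processing were below control in 11 of 13 cases, with a median of -0.17 and 3 genes at least 20% lower (23.1%, beside 6.95% of all genes). Elac2, which cuts tRNAs from the precursor at their 3′ ends, read 231 and 165 (-0.48), and both of its other probe sets were lower. Pnpt1, a polynucleotide phosphorylase that takes part in RNA decay in mitochondria, read 330 and 249 (-0.41). Trmt10c, a subunit of the enzyme that cuts the 5′ ends, read 183 and 134 (-0.44), but a second probe set read 131 and 144 (0.14). The polymerase Polrmt read 152 and 142 (-0.10). The packaging factor Tfam read 358 and 332 (-0.11), with a second probe set at 68.9 and 81.7 (0.24). Of the 13 protein-coding genes of the mitochondrial genome, which this ribosome translates, only ND5, a subunit of respiratory complex I, has a probe set with 1 symbol in the annotation used here. ND5 read 3934 in control and 3540 in silncMDSC (-0.15).

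**Figure D5:**
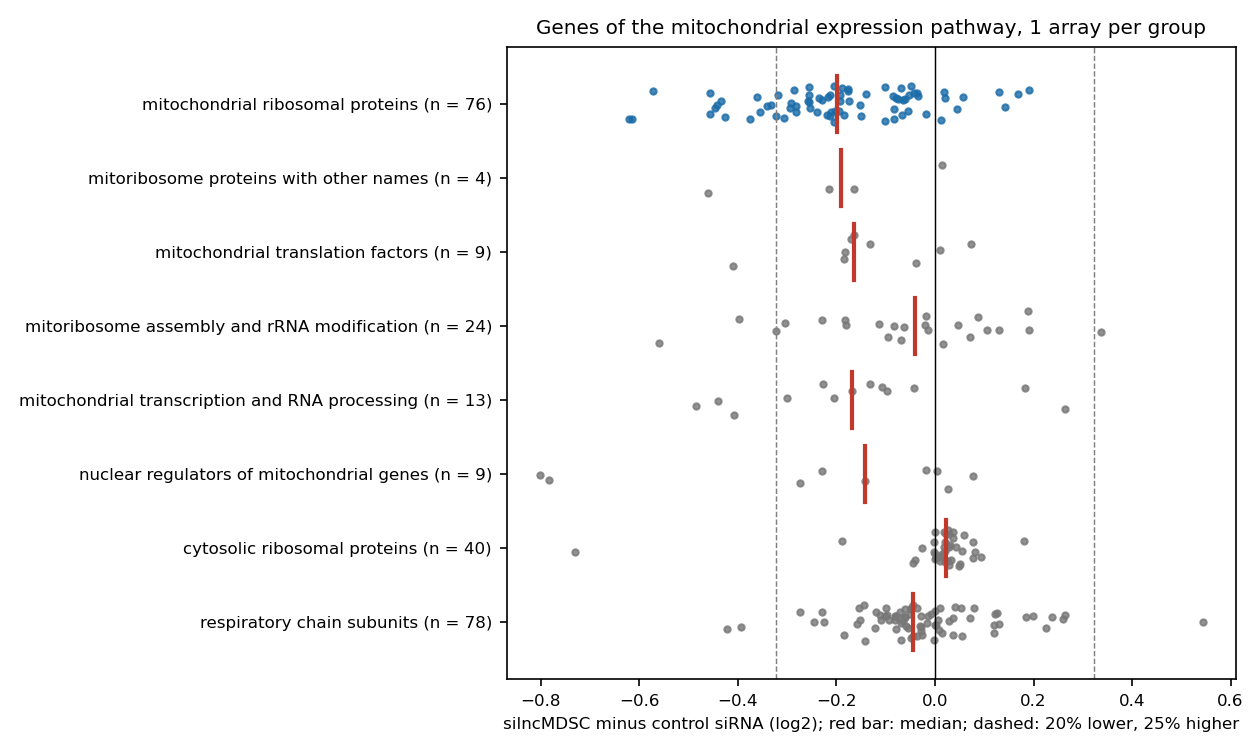
Log2 difference, silncMDSC minus control siRNA, of each gene above the floor in 8 groups, 1 array per group; each point is a gene, red bars are medians and dashed lines mark 20% lower and 25% higher. Mitochondrial ribosomal proteins (-0.20), 4 proteins with other names (-0.19, and -0.17 without Ptcd3), transcription and RNA processing (-0.17) and translation factors (-0.16) have medians left of 0, and cytosolic ribosomal proteins (0.02) do not.

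Among nuclear regulators of mitochondrial genes, Pprc1, a coactivator of the PGC-1 family that is induced by growth signals, read 254 in control and 145 in silncMDSC (-0.80). Myc, a growth factor-induced regulator of ribosome and mitochondrial genes, read 741 and 430 (-0.78). These were the 2 of 9 regulators above the floor that were at least 20% lower (22.2%, beside 6.95% of all genes), and the others were nearer to control. Gabpb1, the partner of the DNA-binding GABP subunit, read 209 and 173 (-0.27). Gabpa, Nrf1 and Yy1, the factors that read the ETS, NRF1 and YY1 letters above, differed by 0.00, 0.03 and -0.02 in their brightest probe sets. Their other probe sets above the floor gave -0.20 for Gabpa (185 and 161), from -0.07 to -0.03 for Nrf1, and -0.07 and 0.15 for Yy1. Whether any of these levels bears on the mitochondrial ribosomal protein genes was not tested.

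Cytosolic ribosomal proteins, which build the ribosome outside mitochondria, did not share the direction. Of 40 genes above the floor, 31 were above control and 9 below, with a median of 0.02. Only Rpl12 was at least 20% lower (2.5%, beside 6.95% of all genes), on a dim probe set of 144 and 86.7 (-0.73). Their levels were not matched to those of the mitochondrial genes: 33 of the 40 read above 5000 on both arrays, nearer to the top of the scale, whereas the mitochondrial genes read 2676 at most. Respiratory chain subunits were listed by symbol. The list covers the complexes into which the products of the mitochondrial ribosome are built, and also Sdha to Sdhd, which belong to a further complex. Of its genes above the floor, 53 of 78 were below control, with a median of -0.04. At least 20% lower were 2 of them (2.56%, beside 6.95% of all genes), Cox8c at 358 and 267 (-0.42), with a second probe set at 0.13, and Cox7c at 112 and 85.0 (-0.39). Cox7a1 was higher, at 54.6 and 80.1 (0.54), and below the floor in control. A larger share of the mitochondrial ribosomal protein genes was thus below control (88.2%) than of the respiratory chain subunits (67.9%) or the cytosolic ribosomal proteins (22.5%) on these 2 arrays.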

How the data were processed

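The deposited values were probe set intensities on a linear scale, made by the authors, 1 column per Affymetrix mouse array. The submitters' processing notes name RMA, without a version. RMA usually returns log2 values, and the step that gave the deposited linear intensities, with a lowest value of 1, is not stated in the sources used here. A gene was read from its brightest probe set with 1 symbol (76 of 76 symbols were unchanged in the RefSeq table of GRCm38.p6). It was analysed when the higher of both values reached the floor of 78.4. Differences were log2(intensity + 1), silncMDSC minus control siRNA, and folds are on that scale. The limma test of the study's methods could not be run with 1 array per group.

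Members and gene lists were chosen with earlier results of these data known. Genes were named if past the threshold (at least 20% lower or 25% higher, the same ratio both ways), among the 5 lowest or 5 highest of a subunit, in a structural group, with conflicting probe sets, or among the leading 3 of another list; further members were chosen after their values were seen. The rule for printed promoters gave those of Mrpl47, Mrps2 and Mrpl24, which held no match in the 250 bases before the start, so others were printed. Genes of the mitochondrial genome, found by Entrez identifier, were added after other values were seen. The calculation was tested on simulated data. Python 3.11.15, numpy 2.4.6, pandas 2.3.3 and statsmodels 0.14.6 were used. Alternatives covered centring, a loess trend (span 0.3), quantile normalization, a pseudocount of 16, other floors (none, 75th percentile, mean of the arrays), other probe set choices, thresholds of 1.5-fold and 2-fold, and subunits by structure.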

Additional observations from a re-analysis of the deposited data

How the results depend on the processing

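No paired analysis was possible because each group has 1 array. The median difference of the large subunit genes stayed between -0.20 and -0.14 and that of the small subunit genes between -0.22 and -0.16 under every alternative run, and the median of all genes moved by less than 0.1 (log2). At least 20% lower were 8 of the 47 large subunit genes, beside 6.95% of all genes analysed. The number became 5 when every probe set of a gene was averaged, beside 5.39% of all genes in that setting. It was also 5 when probe sets with an ending of _x_at, _s_at or _a_at, which may bind other transcripts, were left out. That left 39 of the 47 genes, with 7.14% of all genes at least 20% lower. In these settings the large subunit median exceeded the small by 0.0482 and 0.0749, against 0.0178. The number of small subunit genes at least 20% lower was 7 and fell as low as 5 under the alternatives at this threshold. With a threshold of 1.5-fold 1 large and 1 small subunit gene were lower, beside 1.42% of all genes. With 2-fold it was 0 and 0, beside 0.134%. All 15 genes at least 20% lower stayed below control in every setting in which they could be read. The sign turned in at least 1 setting for 8 genes. Of these, 5 were within 0.1 of control (Mrpl9, Mrpl44, Mrpl48, Mrpl54 and Mrps33), and the others were Mrpl15 (0.16 without those probe sets), Mrpl42 (0.03 with all averaged) and Mrpl51 (0.01 without those probe sets). The cause of these shifts was not tested beyond the probe sets named. The medians of the other gene lists kept their sign in every setting, but some came close to 0: they ranged from -0.14 to -0.02 for nuclear regulators, -0.05 to -0.01 for respiratory chain subunits, -0.07 to -0.02 for assembly and rRNA modification, and 0.01 to 0.05 for cytosolic ribosomal proteins. They ranged from -0.21 to -0.12 for transcription and RNA processing, -0.16 to -0.11 for translation factors, and -0.19 to -0.10 for ribosomal proteins with other names.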
